A study of Mus musculus with 3 samples.

Results

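TRBV14 and TRBV20 are V gene segments of the mouse T cell receptor β chain locus, and they carry the β chains of clonotype B and clonotype A, the clonotypes whose sequences the study printed. Members were the productive β chain (TRB) contigs of cell barcodes whose deposited V gene was TRBV14 or TRBV20. They were found in 388 of 6256 cells with a TRB, of which 211 had TRBV14 and 177 had TRBV20. The data were scTCR-Seq, which reads the α chain (TRA) and β chain transcripts of single T cells, on CD45+ cells sorted from the sciatic nerves of neuropathic NOD.AireGW/+ mice. The allele is a G-to-W change in Aire, the gene that drives display of tissue antigens in the thymus, carried on the autoimmune-prone NOD background. There were 3 libraries of this 1 condition: replicates 1 and 2 held 1 mouse each and replicate 3 pooled 2 mice, so no comparison between conditions was possible and cells of replicate 3 cannot be assigned to a mouse. Cells of all T cell types were sequenced together, and the type of a cell was not analysed here.

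A β chain is made by joining 1 V, 1 D and 1 J segment in the thymus. The joint, called CDR3, is trimmed and filled with untemplated bases, so it differs between T cells, and it is the loop that lies over the peptide in the complex of peptide and MHC. CDR1 and CDR2, encoded by the V segment itself, mostly contact the MHC molecule. All cells descended from 1 T cell share its joint, so a joint seen in several cells of a mouse marks an expanded clone. A rearrangement here is 1 combination of V gene, J gene and CDR3 bases in 1 library, and counting rearrangements once removes clone size from the comparison.

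The libraries held 2374, 3555 and 705 cells with 34630, 41338 and 5142 UMIs on their productive contigs, and a TRB contig rested on a median of 7, 6 and 4 UMIs in turn. Replicate 3 was the shallowest on each count. Replicates 1 and 2 shared 7 cell barcodes, replicates 2 and 3 shared 3 and replicates 1 and 3 shared 0, and no shared barcode carried the same chain in both libraries. Intervals below are exact Clopper-Pearson 95% intervals and cover counting error only.

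On mouse chromosome 6 of GRCm38, the build also named mm10, Trbv14 lies at chr6:41135145-41135616 and Trbv20 at chr6:41188273-41188977, both on the plus strand and both with 2 exons, of which the second encodes the V region. TRBV14 lies upstream of TRBV20, and both lie upstream of TRBD1 (chr6:41533201-41533212), the TRBJ1 cluster, TRBD2 (chr6:41542163-41542176) and the TRBJ2 cluster. The V region of the contigs up to the start of CDR3, 273 bases for TRBV14 and 279 for TRBV20, could be read in replicates 2 and 3. In those libraries it was the same in all 170 TRBV14 contigs and in all 137 TRBV20 contigs, with 0 differences from the reference in either gene, while the V region of replicate 1 was not analysed here. CDR1 and CDR2, as read in replicates 2 and 3, are shown because they set the genes apart outside the joint.
TRBV14 CDR1: tctggacatgatacc
TRBV14 CDR2: tttcgggatgaggctgtt
TRBV20 CDR1: ggttttcaggcaacttct
TRBV20 CDR2: tctactgtgaactcagcaatc

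The germline ends from which the joints were built are shown because the reading of each CDR3 rests on them. V ends run from the codon of the conserved cysteine to the end of the segment. In TRBD2 the capitals mark gactggg, 7 bases that TRBD1 does not hold.
TRBV14 germline end: tgtgccagcagtttct
TRBV20 germline end: tgtggtgctaggga
TRBD1: gggacagggggc
TRBD2: ggGACTGGGggggc
TRBJ2-7 germline start: ctcctatgaacagtacttc

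The joints of clonotypes A and B are shown next, with those bases in capitals that match no germline segment, and with the TRBV20 rearrangement nearest to clonotype A. The last came from another library, replicate 1.
Clonotype A, TRB (TRBV20, TRBJ2-7): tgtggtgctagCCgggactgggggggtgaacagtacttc
Clonotype A, TRA (TRAV14D-1, TRAJ23): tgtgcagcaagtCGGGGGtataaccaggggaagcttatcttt
Nearest to A, TRB (TRBV20, TRBJ2-1): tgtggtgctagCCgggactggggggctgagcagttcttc
Clonotype B, TRB (TRBV14, TRBJ2-7): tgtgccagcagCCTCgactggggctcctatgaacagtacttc
Clonotype B, TRA (TRAV6-2, TRAJ40): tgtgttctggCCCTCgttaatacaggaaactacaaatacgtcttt

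Both genes were of middle to low use in every library. Replicates 1, 2 and 3 held 30, 63 and 27 TRBV14 rearrangements among 1302, 2033 and 537. Its share was 2.30% (interval 1.56% to 3.27%), 3.10% (2.39% to 3.95%) and 5.03% (3.34% to 7.23%), or 3.48% ± 1.40 (SD, n = 3), and it ranked 16, 13 and 9 of 22 V genes. The share was highest in the pooled replicate 3, whose interval does not overlap that of replicate 1. TRBV20 was the V gene of 35, 60 and 16 rearrangements, or 2.69%, 2.95% and 2.98% (2.87% ± 0.161, SD, n = 3), and ranked 15, 16 and 14. Its shares lay within one another's intervals.

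**Figure D1:**
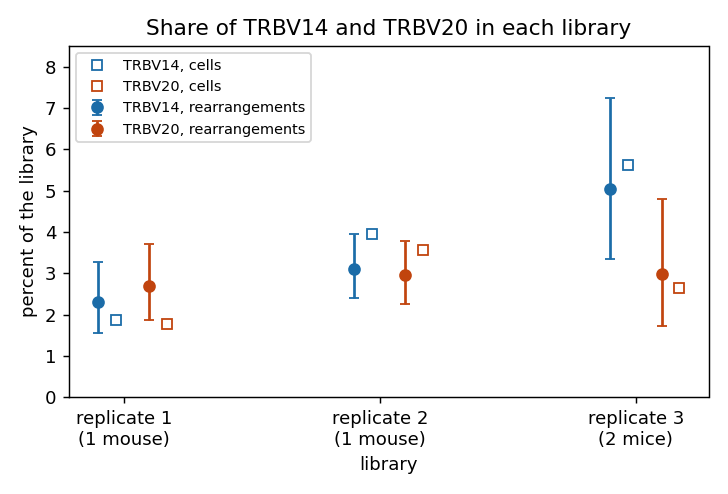
Share of TRBV14 (blue) and TRBV20 (red) in percent of each library's TRB rearrangements (filled circles, with exact 95% intervals) and of its cells with a TRB (open squares). TRBV20 rearrangements stay between 2.69% and 2.98%, while TRBV14 goes from 2.30% in replicate 1 to 5.03% in replicate 3. In replicate 2 both genes take a larger share of cells than of rearrangements, with clonotypes A and B counted.

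Counted in cells, the share of TRBV14 was 1.86%, 3.96% and 5.61%, and that of TRBV20 was 1.78%, 3.57% and 2.65%. Replicate 2 had 2.11 cells per TRBV14 rearrangement and 2.00 per TRBV20 rearrangement against 1.65 over all V genes. In replicate 1 the order was the other way round, with 1.40 and 1.14 against 1.73. The 1.73 includes a rearrangement of another V gene in 365 cells, the largest of that library. The genes were chosen because they carry clonotypes A and B. In replicate 2 these made up 29 of 120 TRBV20 cells and 23 of 133 TRBV14 cells. The excess there includes them, so it is a description and cannot be read as a trait of the genes.

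The study picked clonotypes A and B from expanded clones, so their size is given as a description. The TRB of clonotype A was in 29 cells of replicate 2, which is 24.2% of that library's TRBV20 cells and 0.816% of all its cells (interval 0.547% to 1.17%). It was the largest TRBV20 rearrangement of any library. The TRB of clonotype B was in 23 cells of replicate 2, or 0.647% (0.411% to 0.969%), and was the largest TRBV14 rearrangement of any library. Neither was found in replicates 1 and 3, so that shares up to 0.126% and 0.426% remain possible there. The interval of clonotype B in replicate 2 begins below the limit of replicate 3.

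The β chains of clonotypes A and B were read at different depths. Clonotype A had a median of 4 TRB UMIs per cell (range 1 to 34) and 22 of its 29 cells had at least 3, whereas clonotype B had a median of 7 (range 3 to 29) and all 23 cells had at least 3. The median over the other V genes of replicate 2 was 6. Of the 29 cells of clonotype A, 28 also had its TRA and 1 had no TRA, and of the 23 cells of clonotype B, 20 had its TRA and 3 had none. No cell of either carried a different TRA or a second TRB. The TRA of clonotype A was read in 36 cells of replicate 2, of which 28 had its TRB, 7 had no TRB and 1 had a TRBV1 chain. A count by the TRA would therefore be larger than one by the TRB, while the TRA of clonotype B was read in 20 cells, all with its TRB.

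All rearrangements of these genes with at least 10 cells came from replicate 2. After clonotype B, TRBV14 had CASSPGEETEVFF with TRBJ1-1 in 11 cells and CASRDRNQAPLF with TRBJ1-5 in 10 cells. Each was read with a pair of TRA chains that recurred in its cells: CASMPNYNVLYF in 9 and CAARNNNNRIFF in 7 of the 11 cells, and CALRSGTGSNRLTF in 7 and a TRAV5-1 chain with TRAJ42 in 7 of the 10 cells. T cells can carry a pair of rearranged α chains, because the α locus does not shut off its other allele as firmly as the β locus does. After clonotype A, TRBV20 had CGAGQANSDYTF with TRBJ1-2 in 10 cells and, in 5 cells each, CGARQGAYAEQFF with TRBJ2-1 and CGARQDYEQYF with TRBJ2-7.

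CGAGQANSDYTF had no TRA in any of its 10 cells, although its TRB had a median of 5 UMIs. No TRA contig of any kind, productive or not, was listed for those barcodes. Of the 163 rearrangements of at least 5 cells over all V genes and libraries, 3 had no TRA in any cell, and the median rearrangement had a TRA in 90.0% of its cells. This clone was singled out after its values were seen, and no cause was tested. The other 8 such rearrangements of TRBV14 and TRBV20 had a TRA in 80.0% to 100% of their cells.

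In replicates 1 and 3, which had fewer cells than replicate 2, no rearrangement of these genes was in more than 6 cells. The largest TRBV14 rearrangement was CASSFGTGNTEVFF in replicate 1, in 6 cells that all carried the TRA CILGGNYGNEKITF, and in replicate 3 a TRBJ2-4 joint in 4 cells, of which 2 had a TRA. Next came a TRBJ1-3 joint with 3 cells and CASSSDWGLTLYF with 2 cells in replicate 1, and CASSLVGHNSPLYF with 3 cells and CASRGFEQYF with 2 cells in replicate 3, and in both libraries other TRBV14 joints were in 2 cells too. For TRBV20 the largest in replicate 1 was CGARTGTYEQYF with 3 cells, followed by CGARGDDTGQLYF, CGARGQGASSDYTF and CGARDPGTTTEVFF with 2 cells each. In replicate 3 it was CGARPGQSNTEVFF with 2 cells, and the other 15 TRBV20 rearrangements of that library were seen in 1 cell each, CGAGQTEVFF among them.

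Expansion over all rearrangements of a gene did not pass the test for either. Of the TRBV14 rearrangements, 7 of 30, 20 of 63 and 6 of 27 were in more than 1 cell, or 23.3%, 31.7% and 22.2%, against 20.4%, 22.1% and 12.5% over all V genes. The share was above that of the library in 3 of 3 libraries, with 33 such rearrangements against 23.4 expected, and had an unadjusted p of 0.0335 in the exact two-sided test stratified by library and an adjusted p of 0.352. Clonotypes A and B, which the study chose for their expansion, count here as 1 rearrangement each. Without them, an alternative chosen after seeing the data, 32 TRBV14 rearrangements were in more than 1 cell against 23.2 expected (unadjusted p = 0.0440, adjusted p = 0.407, same exact test). Of the TRBV20 rearrangements, 4 of 35, 12 of 60 and 1 of 16 were in more than 1 cell, which was 17 against 22.4 expected (adjusted p = 0.568 in the same exact test). So 0 of the 2 genes were called, with 1 at an unadjusted p under 0.05. Over all 21 V genes tested 4.76% were called and 9.52% were under the unadjusted limit. TRBV20 thus held the largest clone of both genes although its share of expanded rearrangements was below that of the library in every replicate.

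**Figure D2:**
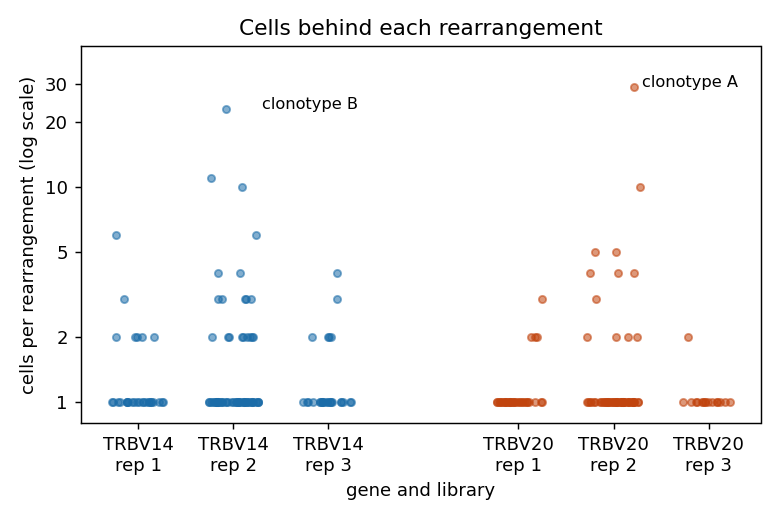
Cells (log axis) behind each rearrangement of TRBV14 (blue) and TRBV20 (red) in each library; each point is 1 rearrangement, spread sideways for clarity. Most points lie at 1 cell. Clonotype B with 23 cells and clonotype A with 29 cells stand above the rest of replicate 2, where the next largest had 11 and 10 cells.

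J use placed clonotypes A and B on the most frequent J gene of the data. Both joined TRBJ2-7. TRBV20 used TRBJ2-7 in 10 of 35, 15 of 60 and 3 of 16 rearrangements, or 28 of 111 (25.2%), followed by TRBJ1-1 and TRBJ2-5 with 14 each. Over the V genes other than TRBV14 and TRBV20, TRBJ2-7 made up 20.0%. TRBV14 used TRBJ2-7 in 5 of 30, 9 of 63 and 2 of 27, or 16 of 120 (13.3%), and its most frequent J gene was TRBJ1-1 with 4 of 30, 13 of 63 and 4 of 27, or 21 of 120 (17.5%), followed by TRBJ2-7 and by TRBJ2-5 with 14.

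None of these joins passed the test across the table. TRBV14 with TRBJ1-1 was found 21 times against 12.8 expected, above the expected number by 1.63 times (unadjusted p = 0.0228, adjusted p = 0.249, exact stratified test). TRBV14 with TRBJ2-7 was found 16 times against 23.7 (adjusted p = 0.541) and TRBV20 with TRBJ2-7 was found 28 times against 22.2 (adjusted p = 0.736) in the same exact test. Of the 12 J genes tested with each V gene, 0 were called for TRBV14 and 0 for TRBV20, and 1 and 0 had an unadjusted p under 0.05. Over all 252 pairs 1.59% were called and 12.3% were under the unadjusted limit. TRBJ2 genes as a cluster were used in 17 of 30, 34 of 63 and 19 of 27 TRBV14 rearrangements, 70 in all against 79.2 expected (adjusted p = 0.150, exact stratified test), and in 22 of 35, 38 of 60 and 11 of 16 TRBV20 rearrangements, 71 against 73.1 (adjusted p = 0.757). The share of TRBV14 was below that of the other V genes in replicates 1 and 2 and above it in replicate 3. Over the 21 V genes 4.76% were called for J cluster use and 33.3% were under the unadjusted limit, while 0 of the 2 genes were called by the exact test and 0 were under that limit.

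**Figure D3:**
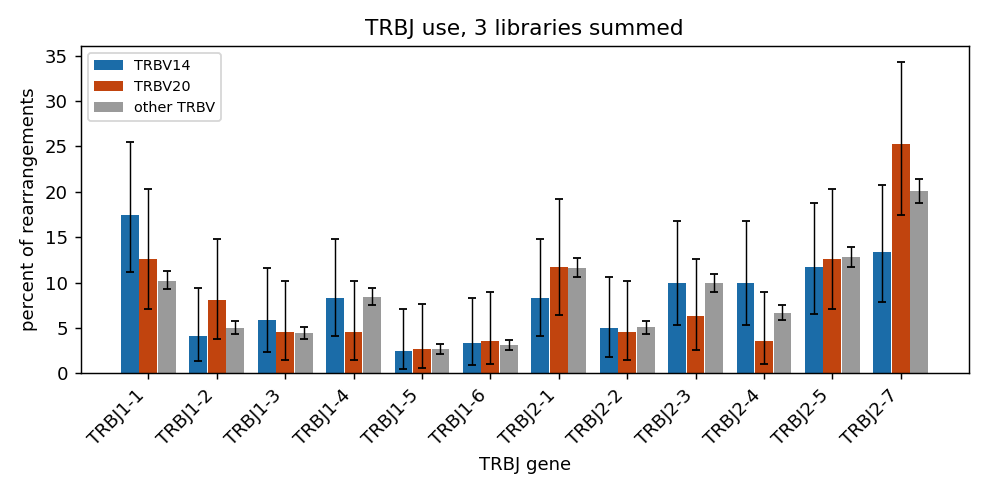
Use of the 12 TRBJ genes in percent of rearrangements for TRBV14 (blue, 120), TRBV20 (red, 111) and all other V genes (grey, 3641), libraries summed, with exact 95% intervals. TRBJ1-1 is the tallest bar of TRBV14 at 17.5% and TRBJ2-7 that of TRBV20 at 25.2%.

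The first residues of CDR3 come from the V segment, and the genes differ there. TRBV14 joints began with CASS in 110 of 120 rearrangements and with CASR in the other 10. Among those with CASS the fifth residue was F in 28, L in 27 and P in 15, and clonotype B belonged to the CASSL group. TRBV20 joints began with CGAR in 69 of 111, with CGAG in 13 and with CGAS in 11. CGAR was the most frequent start in each library, with 21 of 35, 40 of 60 and 8 of 16. Clonotype A began with CGAS, so it did not carry the common start of its gene: the first unmatched base after the 11th V base completes a serine codon, where the germline end has an arginine codon. The CGAS group held 3, 6 and 2 rearrangements, and in cells 3, 35 and 2, of which 29 cells were clonotype A.

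TRBV20 joints were shorter than those of other V genes in every library. Their mean CDR3 length minus that of the other genes was -1.03, -0.99 and -1.93 amino acids, or -1.32 ± 0.53 (SD, n = 3). The exact sign-flip permutation test over 3 libraries gave p = 0.25, the smallest it allows, so no difference could pass the threshold. TRBV14 joints differed in mean length by -0.04, -0.47 and -0.43 (-0.31 ± 0.24, SD, n = 3; p = 0.25 in the same exact test). Clonotype A with 13 residues and clonotype B with 14 residues had the median length of their genes.

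**Figure D4:**
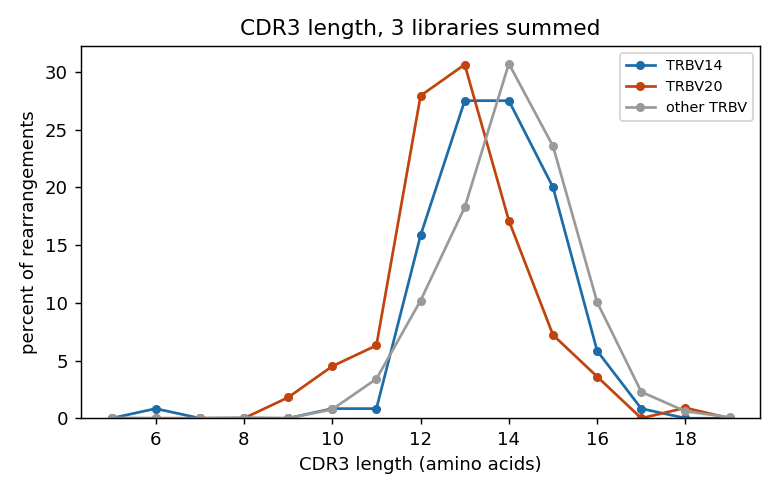
CDR3 length in amino acids (horizontal) against percent of rearrangements for TRBV14 (blue), TRBV20 (red) and all other V genes (grey), 3 libraries summed. The TRBV20 line lies to the left of the others, with a median of 13, and TRBV14 has a median of 14.

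Matching each joint to germline segments showed which bases were fewer. TRBV20 has 14 germline bases in CDR3, the fewest of the 20 V genes matched together with TRBV30, and TRBV14 has 16. The CDR3 of TRBV20 differed from those of the other matched genes by -3.97 ± 1.59 bases (SD, n = 3 libraries). V bases differed by -2.66 ± 0.48 and J bases by -1.03 ± 0.66, and both were fewer in each library. Bases that matched no segment differed by -0.19, -0.87 and 1.07 in the 3 libraries, in both directions. Replicate 3 includes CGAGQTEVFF as TRBJ2-1, a J name in doubt, with 6 J bases and 10 unmatched bases. TRBV20 kept every germline V base in 39 of 111 rearrangements (35.1%), against 6 of 120 for TRBV14 and 643 of 3102 (20.7%) for the others. The TRBV20 end closes with ggga, which also begins TRBD1 and TRBD2, and V was matched first. Bases that could be V or D were thus counted as V. The 35.1% is therefore an upper limit, and the split between V and D bases of TRBV20 is uncertain. A joint with 0 unmatched bases was found in 12 of 111 TRBV20 rearrangements (10.8%), in 5 of 120 TRBV14 rearrangements (4.17%) and in 6.09% of the others, and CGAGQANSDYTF was one of the 12. D names from short runs are uncertain: 4 TRBV14 and 2 TRBV20 rearrangements had bases named TRBD2 beside a TRBJ1 gene, a join that the order of the locus does not give directly.

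**Figure D5:**
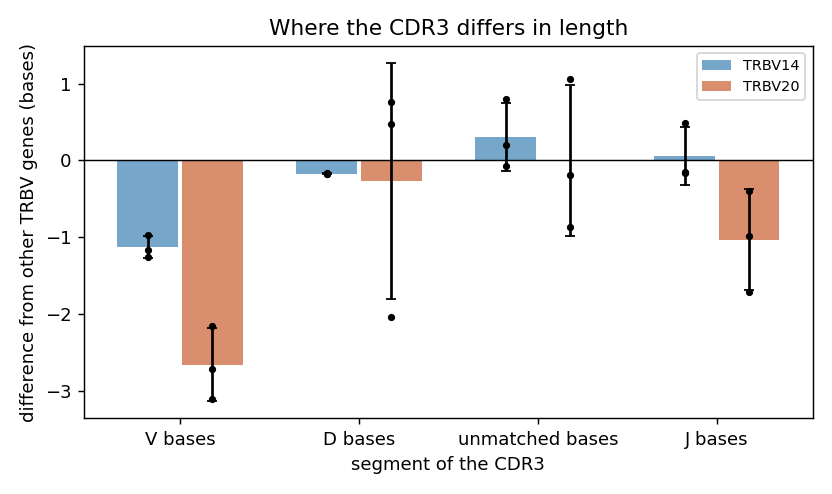
Mean difference in bases between the CDR3 of TRBV14 (blue) or TRBV20 (red) and that of the other V genes, split into V, D, unmatched and J bases. Bars are means over 3 libraries, error bars are SD and black points are the libraries. The V bases of TRBV20 lie at -2.16 to -3.11 in every library, while the D and unmatched bases fall on both sides of 0.

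Clonotypes A and B both read aspartate, tryptophan and glycine (DWG) in the middle of CDR3. The motif was looked at because both clonotypes hold it, so its counts are a description. It was in 9 of 111 TRBV20 rearrangements (8.11%, interval 3.77% to 14.8%), 4 of 120 TRBV14 rearrangements (3.33%, 0.916% to 8.31%) and 184 of 3641 others (5.05%, 4.36% to 5.82%). By library the TRBV20 counts were 4 of 35, 5 of 60 and 0 of 16, and the TRBV14 counts were 2 of 30, 2 of 63 and 0 of 27. The intervals of both genes hold the share of the others.

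All 13 of these joints used a TRBJ2 gene, and all 13 held gactggg, the TRBD2 bases shown in capitals above. Read from its first base, this run begins with the codons of aspartate and tryptophan. Over all matched rearrangements with DWG, 154 of 155 used a TRBJ2 gene and 146 held gactggg. In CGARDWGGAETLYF (TRBJ2-3), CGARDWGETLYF (TRBJ2-3) and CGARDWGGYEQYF (TRBJ2-7) 0 bases were left unmatched, since bases of TRBV20, TRBD2 and the J gene fill the joint. Of the 13 joints of TRBV14 and TRBV20, besides clonotypes A and B, only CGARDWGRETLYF of TRBV20 and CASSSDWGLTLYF of TRBV14 were in more than 1 cell. The first was in 3 cells of replicate 2, all with 1 and the same TRA, and the second in 2 cells of replicate 1. The remaining 9 were seen in 1 cell each. Among the other V genes, 29 of 184 rearrangements with DWG were in more than 1 cell, and over all rearrangements 20.2% were.

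Few rearrangements of the same V gene lay close to clonotype A or B. No TRBV20 rearrangement was within 1 amino acid of clonotype A and no TRBV14 rearrangement was within 1 amino acid of clonotype B. The nearest to clonotype A was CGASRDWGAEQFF, at 2 substitutions, in 1 cell of replicate 1 with 11 UMIs. Its first 25 bases were those of clonotype A, both unmatched bases included. After them clonotype A runs on in TRBD2 to TRBJ2-7, while the other joint is already in TRBJ2-1. The next, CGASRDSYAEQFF of replicate 1, shared the first 18 bases, and no other TRBV20 rearrangement shared more than 13.

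The cell with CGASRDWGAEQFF also had a TRA of TRAV14D-1, the V gene of clonotype A's TRA, joined to TRAJ7 with the CDR3 CAASTGYSNNRLTL. Different TRA chains with TRAV14D-1 made up 4 of 33 in TRBV20 cells of replicate 1 against 31 of 1231 in all cells of that library, 3 of 51 against 38 of 1700 in replicate 2, and 0 of 9 against 4 of 394 in replicate 3. The counts in TRBV20 cells include that cell in replicate 1 and clonotype A in replicate 2. This gene was looked at after that cell was seen, so no test is given. The TRA CDR3 of clonotype A occurred once more, in replicate 1, as TRAV10D with TRAJ23 from other bases and beside a TRBV13-1 chain.

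The nearest TRBV14 rearrangements to clonotype B, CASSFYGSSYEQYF and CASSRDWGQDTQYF of replicate 2, differed at 4 residues. Across V genes clonotype B was less alone. Its CDR3 was also read with TRBV3 in 17 cells and with TRBV10 in 2 cells of replicate 2, and 1 residue away with TRBV10 in 2 cells of replicate 1 (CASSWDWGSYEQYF) and with TRBV3 in 1 cell of replicate 2 (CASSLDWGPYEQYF). No joint of another V gene was within 1 residue of clonotype A.

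Neighbours were also counted over whole genes. A rearrangement of the same V gene at 1 substitution existed for 13 of 120 TRBV14 rearrangements (10.8%), for 13 of 111 TRBV20 rearrangements (11.7%) and for 518 of 3872 over all V genes (13.4%). The number depends on how many rearrangements a gene has. In each gene 8 had such a neighbour in the same library and 6 in another.

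Amino acid CDR3s with the same J gene recurred across libraries once in each gene. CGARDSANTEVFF with TRBV20 and TRBJ1-1 was in 1 cell of replicate 1 and 1 cell of replicate 2. Both cells also had the same TRA CDR3 in protein, with TRAJ12. Its V gene was named TRAV13-4-DV7 in replicate 1 and TRAV13D-2 in replicate 2. The TRA bases of these cells were not compared, and the origin of the match was not tested. The TRB joints differ at 4 bases, in capitals below, so the same protein sequence was made by different joins.
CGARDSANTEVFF, replicate 1: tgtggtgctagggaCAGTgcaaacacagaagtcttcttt
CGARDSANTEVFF, replicate 2: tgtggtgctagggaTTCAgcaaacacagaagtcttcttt

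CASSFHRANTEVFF with TRBV14 and TRBJ1-1 was in 2 cells of replicate 2 and 1 cell of replicate 3, with 0 differences between the bases. All 3 cells had the TRA CDR3 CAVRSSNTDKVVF with TRAJ34, named TRAV9-1 in replicate 2 and TRAV9D-1 in replicate 3. The TRA joints differ at 1 base, in capitals below, so the CDR3 of each chain is the same in protein, while the TRA bases differ. TRAV9-1 and TRAV9D-1 are near-identical copies. These 3 cells had 3 to 6 TRB UMIs, and their origin was not tested.
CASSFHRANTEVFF, TRB in both: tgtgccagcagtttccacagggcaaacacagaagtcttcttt
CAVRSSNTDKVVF, replicate 2: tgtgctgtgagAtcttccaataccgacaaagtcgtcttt
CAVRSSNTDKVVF, replicate 3: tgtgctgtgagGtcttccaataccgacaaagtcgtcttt

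Within replicate 3, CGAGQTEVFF with TRBV20 stood in the deposited files as TRBJ2-1 in 1 cell (8 UMIs) and as TRBJ1-1 in another (2 UMIs). The joints differ only at the last base and both cells had the same TRA bases (TRAV8D-2, TRAJ40, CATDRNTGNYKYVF). Against germline, the joint named TRBJ1-1 matched 15 J bases and left 1 base unmatched. The joint named TRBJ2-1 matched 6 J bases and left 10 unmatched. Before the last base both hold the bases of TRBJ1-1, so the name TRBJ2-1 is in doubt. They may be counted as 1 clone in place of 2, but the deposited names were kept.
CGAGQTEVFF as TRBJ1-1: tgtggtgcgggacaaacagaagtcttcttT
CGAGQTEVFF as TRBJ2-1: tgtggtgcgggacaaacagaagtcttcttC

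The α partners of both genes were spread over many TRAV families, and no family passed the test. The J genes of the partners were not tested. TRAJ15 recurred among TRBV20 partners, as in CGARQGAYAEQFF and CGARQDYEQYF, while clonotype A and others had other TRAJ genes. The share of TRAJ15 over all cells was not counted. Paired clonotypes, from cells with exactly 1 TRA and 1 TRB, numbered 85 for TRBV14 and 68 for TRBV20 of 2582. TRBV14 paired most often with TRAV6 (13 pairs), TRAV8 (9) and then TRAV5, TRAV7, TRAV9, TRAV10 and TRAV12 with 8 each. TRBV20 paired most often with TRAV7 (9 pairs), then TRAV6, TRAV8 and TRAV14 with 8 each. Clonotype A was one of the 8 pairs of TRBV20 with TRAV14, and clonotype B one of the 13 of TRBV14 with TRAV6.

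TRAV8 had the lowest p with both genes. TRBV14 paired with it 1, 5 and 3 times, 9 against 4.64 expected (unadjusted p = 0.0467, adjusted p = 0.614), and TRBV20 4, 0 and 4 times, 8 against 3.54 (unadjusted p = 0.0230, adjusted p = 0.467), in the exact stratified test. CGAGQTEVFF, counted under both of its deposited J names, gave 2 of the 4 in replicate 3. The pairing of TRBV20 with TRAV8, at 2.26 times the expected number over all libraries, was at 4.23 times without replicate 2 and 1.36 times without replicate 3. Of 17 families tested with each gene 0 were called, with 1 each at an unadjusted p under 0.05, and over all 340 pairs 0.294% were called and 7.94% were under that limit. TRBV20 with TRAV14 was found 8 times against 4.68 (adjusted p = 0.881) and TRBV14 with TRAV6 13 times against 13.2 (adjusted p = 1) in that exact test.

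Cells without a TRA were most frequent in replicate 3 for both genes, as for the other V genes. No TRA was read in 4 of 42, 18 of 133 and 13 of 36 TRBV14 cells (9.52%, 13.5% and 36.1%) and in 5 of 40, 27 of 120 and 7 of 17 TRBV20 cells (12.5%, 22.5% and 41.2%), against 17.3%, 22.0% and 38.0% of the cells of other V genes. In replicate 2 the share of TRBV14 (interval 8.22% to 20.5%) was below that of the other V genes, which was not tested. The 27 TRBV20 cells of replicate 2 include the 10 cells of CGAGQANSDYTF. In replicates 1, 2 and 3, a second TRB was read in the cell of 1 of 42, 18 of 134 and 0 of 36 TRBV14 chains and of 2 of 40, 17 of 120 and 1 of 17 TRBV20 chains, against 9.85%, 12.0% and 3.17% of the chains of other V genes. Such cells were kept, and no doublet caller was run. A second TRB recurred in 2 clones of replicate 2. A TRBV20 joint with TRBJ1-2 had the TRBV15 chain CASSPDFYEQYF in 4 of 4 cells, and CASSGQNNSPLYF of TRBV14 had a TRBV1 chain with TRBJ2-1 in 2 of 2 cells. Both pairs were picked after their values were seen.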

How the data were processed

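The authors ran Cell Ranger on mm10 and deposited contig annotations per library, with the V and J gene, CDR3 and counts of UMIs and reads of each contig, and clonotype tables with the count of cells. The Cell Ranger version is not given in the sources used here. Seurat, also in the submitters' notes, was not used. Consensus tables were not used.

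Productive chains on called cells were grouped into rearrangements within a library, each library being a stratum. J cluster use, V-J joining, expansion (over 1 cell) and TRAV pairing were tested for every V gene with at least 10 rearrangements or pairs, by an exact two-sided test that sums hypergeometric counts over libraries, with Benjamini-Hochberg adjustment over the whole table (threshold 0.05). A p here is about the rearrangements of these libraries and says nothing of the spread between mice. The test was checked on simulated data of J cluster use. Intervals of shares are 95% Clopper-Pearson intervals, and the limit for a count of 0 was 3 counts. No doublet caller was run, and cells with a second TRB were kept.

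Joints were matched to GRCm38 with GENCODE M21 coordinates, first V, then J, then a D run of at least 5 bases. TRBV10 and TRBV12-2+TRBV13-2 (137 and 402 rearrangements) were left out, which left 3333 of 3872. Named rearrangements were clonotypes A and B, the 3 largest per gene and library (ties in cells ordered by UMIs), those found in more than 1 library and the nearest to A and B. Others, singled out after their values were seen, are the motif carriers, the neighbours beyond 1 substitution and the clones with missing or second chains. So are the neighbour pair with the same TRA CDR3 and the partners with TRAJ15. Members and lists were chosen with earlier results of these data known. Alternatives were amino acid CDR3s, chains of at least 3 UMIs, cells with 1 TRB, other limits for expansion, other V and TRAV names, and leaving out each replicate. The analysis used scipy 1.17.1, numpy 2.4.6 and pandas 2.3.3 under Python 3.11.15, with matplotlib 3.10.9 for figures.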

Additional observations from a re-analysis of the deposited data

Results flagged for a closer look

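The TRB of clonotype A was also read on 15 barcodes of replicate 2 that Cell Ranger did not call cells, with a median of 3 UMIs and a maximum of 19, and the TRB of clonotype B on 17, with a median of 4 and a maximum of 12. Beside them, 29 and 23 called cells of replicate 2 had these chains. No barcode outside called cells held either chain in replicates 1 and 3. Of all productive TRB contigs of replicate 2, 28.3% lay outside called cells, against 31.8% for TRBV20 and 29.8% for TRBV14. Whether these barcodes were T cells was not tested.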

How the results depend on the processing

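No paired analysis was possible because all libraries belong to 1 condition. Of 112 values recomputed under an alternative, 110 stayed the same by the rule for their kind. Test values kept their direction and their side of the threshold, and counts of calls stayed within 1.5 times. Shares moved by less than their spread, and neighbours and cells of clonotypes A and B stayed within their interval. The length p cannot fall under 0.25 with 3 libraries or fewer, so those values could not change side. The expansion values without clonotypes A and B, chosen after seeing the data, are included. The calls for J cluster use, V-J joining, expansion and TRAV pairing of the 2 genes stayed at 0 under each alternative. The use of TRBJ2 genes by TRBV20 reversed with chains of at least 3 UMIs, from 0.971 to 1.02 times the expected number, both close to it. The mean share of TRBV20 was 2.66% in cells in place of 2.87% in rearrangements. The CDR3 length difference of TRBV20 ranged from -1.48 to -1.01 and that of TRBV14 from -0.45 to -0.23 amino acids when a library was left out. With chains of at least 3 UMIs, 22 cells had the TRB of clonotype A and 23 that of clonotype B. Without replicate 2, which holds most members, TRBV14 with TRBJ1-1 was at 1.29 times the expected number. With 16 TRBV20 rearrangements in replicate 3 and 4 mice in all, modest shifts may have gone undetected.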
